A study of Mus musculus with 4 samples.

Results

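Regions of open chromatin that lie inside protein-coding genes, away from both ends of every such gene, and that were open in every library were examined in 10T1/2 cells, fibroblasts of a mouse embryonic line. They were found by keeping the 13877 best-ranked ATAC-seq peaks of each of 4 libraries, joining peaks that overlapped by at least 1 bp, and taking the merged regions that had a peak from all 4 libraries and a midpoint inside a gene span, more than 1 kb from every coding gene end. There were 2230 such intragenic regions among 19880 merged regions. Of the 8935 merged regions open in all 4 libraries, another 4655 lay within 1 kb of a gene end, 1974 were intergenic and 76 lay on scaffolds without genes.

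ATAC-seq marks open DNA by the places where a transposase can insert adapters. The knockout group (KO) was 1 clone of 10T1/2 cells, grown from a single sorted cell after CRISPR-Cas9 cutting of Ranbp2, and was measured in 2 libraries. It was set against wild-type 10T1/2 cells (WT), also with 2 libraries, and each library was made from 50000 cells. Because the KO cells were 1 clone, the effect of the knockout and the particular history of that clone cannot be told apart. No label says that libraries of a group came from separate cultures, so the p-values measure the spread between these libraries, which may be technical.

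Open chromatin inside genes is known to include intronic enhancers, alternative promoters and sites bound by insulator proteins. Enhancers are DNA elements that raise the activity of a promoter from a distance, and an alternative promoter starts a shorter transcript of the gene it lies in. RANBP2 is a nucleoporin of the cytoplasmic filaments of the nuclear pore that binds the GTPase Ran and promotes the attachment of SUMO to other proteins.

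The peak lists held 13877 and 24292 peaks in the KO libraries, against 33721 and 18511 peaks in the WT libraries. Since the lists carry no counts of reads, the depth of each library is unknown. Peaks were therefore compared by rank percentile within a list of equal length, where 100 is the strongest peak and 0 the last one kept. The weakest kept peak had a −log10 q of 3.005 and 12.65 in the KO lists, against 23.7 and 9.62 in the WT lists, so the lists reached different strengths. Gene ends of 15 fibroblast markers were open for 4 and 5 genes in the KO lists, against 5 and 5 genes in the WT lists, while gene ends of pluripotency, neural, endothelial and epithelial markers were open for 0 genes in every list. Gene ends of the 12 immune markers were open for 0 and 1 genes in the KO lists, against 0 and 0 genes in the WT lists. Of all coding genes, 24.2% had an end open in all 4 lists, a stricter count than openness in a single list. The marker counts were not tested.

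Some of the intragenic regions sat on a transcription start annotated inside the host gene. Of the 2152 regions on chromosomes that the table of RefSeq promoter windows covers, 436 (20.3%) overlapped a window running from 250 bp before to 50 bp after a start, against 47.4% of all regions open in all 4 libraries. The share was 78.2% for gene-end regions and 4.77% for intergenic regions. The starts were of coding genes in 407 cases and of long non-coding RNAs in 61, with 32 regions at both, and in 386 cases the nearest start belonged to the host gene itself. A further 78 regions were on a chromosome that the table, as used here, did not cover. The host gene itself had a coding window in the table for only 1788 of the intragenic regions. In the other hosts an own start could not be matched, so the share of 20.3% may be too low.

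The promoter windows printed here carry the contrast between CpG-rich and CpG-poor internal starts, and all 4 peak summits lay inside each of them. They were chosen after their values were seen. Sequences are from RefSeq, build GRCm38.p6 (the primary coordinates of mm10), 5′ to 3′ on the strand of the gene, with every CpG in capitals. Tarbp2 encodes a partner of Dicer, Tmpo the lamina-associated polypeptide 2, Runx1 a transcription factor of blood and mesenchymal cells, Lmna lamin A/C of the nuclear lamina, and Dnm3os a long non-coding RNA antisense to Dnm3 that carries microRNAs. The windows lie at chr15:102517942-102518241 on the plus strand, chr10:91171570-91171869 on the minus strand, chr16:92697280-92697579 on the minus strand, chr1:162217373-162217672 on the plus strand and chr3:88503303-88503602 on the minus strand, in the order of the lines.
Tarbp2: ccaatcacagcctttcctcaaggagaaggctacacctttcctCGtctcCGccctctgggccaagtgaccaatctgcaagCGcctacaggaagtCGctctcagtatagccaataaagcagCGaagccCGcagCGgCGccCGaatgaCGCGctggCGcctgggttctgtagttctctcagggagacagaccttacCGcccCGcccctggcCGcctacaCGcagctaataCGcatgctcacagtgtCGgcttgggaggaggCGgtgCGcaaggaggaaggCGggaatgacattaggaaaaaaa
Tmpo: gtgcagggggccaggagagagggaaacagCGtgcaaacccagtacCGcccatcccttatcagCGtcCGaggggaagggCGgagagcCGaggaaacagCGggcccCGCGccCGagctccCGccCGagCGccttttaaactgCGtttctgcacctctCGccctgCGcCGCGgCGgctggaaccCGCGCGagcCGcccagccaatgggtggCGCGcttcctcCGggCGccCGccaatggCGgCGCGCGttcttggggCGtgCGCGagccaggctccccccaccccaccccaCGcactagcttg
Runx1: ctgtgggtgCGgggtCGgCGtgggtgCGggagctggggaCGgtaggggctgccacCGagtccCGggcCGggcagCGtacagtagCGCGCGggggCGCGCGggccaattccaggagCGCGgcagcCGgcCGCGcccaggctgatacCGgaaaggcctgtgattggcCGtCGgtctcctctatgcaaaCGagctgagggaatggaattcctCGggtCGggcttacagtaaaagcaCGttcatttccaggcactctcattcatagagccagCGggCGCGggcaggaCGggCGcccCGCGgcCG
Dnm3os: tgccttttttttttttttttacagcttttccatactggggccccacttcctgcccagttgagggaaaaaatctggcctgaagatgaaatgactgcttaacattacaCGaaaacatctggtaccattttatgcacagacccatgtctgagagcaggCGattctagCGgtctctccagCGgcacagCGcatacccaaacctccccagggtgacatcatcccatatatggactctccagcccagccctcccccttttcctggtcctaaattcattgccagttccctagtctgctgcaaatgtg
Lmna: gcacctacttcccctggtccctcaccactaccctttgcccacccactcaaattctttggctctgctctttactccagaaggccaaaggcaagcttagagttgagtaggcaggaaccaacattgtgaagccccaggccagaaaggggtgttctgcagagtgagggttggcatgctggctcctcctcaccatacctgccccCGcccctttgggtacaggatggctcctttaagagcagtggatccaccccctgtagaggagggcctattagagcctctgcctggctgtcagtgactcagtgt

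The Tarbp2, Tmpo and Runx1 windows held 21, 36 and 35 CpGs, and the Dnm3os and Lmna windows held 5 and 1. The Tarbp2 region (chr15:102517859-102518501) was the best ranked of all regions at an internal start, at percentiles 97.05 and 97.36 in the KO libraries, against 98.72 and 98.98 in the WT libraries. The Lmna region (chr3:88503189-88503490) ranked at 85.69 and 69.26 in the KO libraries, against 80.35 and 82.80 in the WT libraries. Its window was the printed one with a match to the AP-1 letters (tgactca), and the genotypes overlapped. The Runx1 region ranked at 76.42 and 71.11 in the KO libraries, against 69.87 and 46.32 in the WT libraries. Both KO libraries were higher than both WT libraries there, by 1.24 points at the closest pair. The Tmpo region (chr10:91171560-91171833) ranked at 2.82 and 13.24 in the KO libraries, against 47.17 and 40.22 in the WT libraries, so both KO libraries were lower.

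The open internal starts resembled open gene-end promoters in base composition. The 523 internal windows that overlapped an intragenic region open in all 4 libraries had a median GC content of 63.0% and a median of 23 CpGs (interquartile range 16 to 29). The 5819 internal windows with no kept peak in any library had 50.7% GC and 5 CpGs (3 to 10). Gene-end windows open in all 4 libraries had 62.7% GC and 24 CpGs (n = 4607). Internal windows with a peak in some but not all lists lay between, with 60.7% GC and 18 CpGs (n = 329). Starts of long non-coding RNAs made up 63 of the 523 open internal windows, but 2690 of the 5819 without a peak. The contrast therefore does not separate openness from the kind of start. The windows also share genes and sequence, so their values are given without a test.

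The GC box, CCAAT and cAMP-response letters were more frequent in open internal windows than in those without a peak, and the AP-1 and TEAD letters were less frequent, as counts without a test. Those sets of windows differ in their share of non-coding starts, as given above. The GC box (GGGCGG, read on both strands, as all motifs here) was in 68.3% of open internal windows, 23.5% of internal windows without a peak, 74.6% of open gene-end windows and 35.7% of all 32851 windows in the table. CCAAT was in 43.6% of open internal windows, 32.6% of those without a peak and 37.4% of all windows. The cAMP response element TGACGTCA was in 3.44% of open internal windows, 0.842% of those without a peak and 1.79% of all windows. The AP-1 letters TGANTCA were in 6.12% of open internal windows, 8.35% of those without a peak and 7.81% of all windows. The TEAD letters GGAATG were in 12.4% of open internal windows, 16.5% of those without a peak and 14.7% of all windows. In open gene-end windows CCAAT was in 50.7%, TGACGTCA in 4.82%, the AP-1 letters in 3.93% and the TEAD letters in 10.2%. The GC box and TGACGTCA each contain a CpG, so their shares and the CpG count are not separate measures. Matches of different motifs can also overlap.

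Overlap with the window, which reaches further upstream than downstream, limits how far from a start the summits of these regions can lie. The mean summit of the 4 libraries had a median offset of -55.4 bp from the nearest start, that is upstream of it, and 301 of 436 regions (69.0%) had it within 100 bp. The other 1716 regions were mostly far from any start in the table, with a median distance of 20.2 kb, and 1142 of them (66.6%) lay beyond 10 kb. Of these 1716, 1361 had a host gene with a coding window in the table. The rest may include regions at a start of the host that could not be matched.

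**Figure D1:**
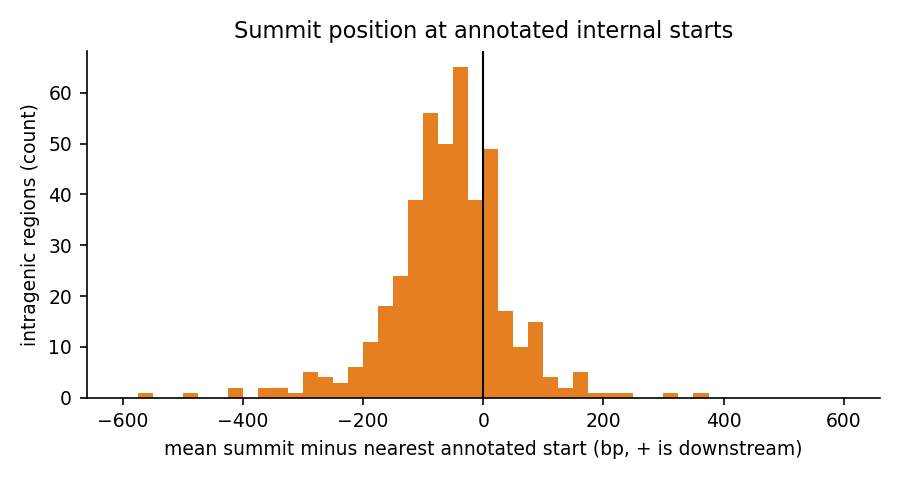
Position of the mean summit of the 4 libraries relative to the nearest annotated start, in bp, for the 436 intragenic regions at an internal start; bars count regions in bins of equal width. The bulk of the counts lies just upstream of the start, around the median of -55.4 bp.

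A single intragenic region overlapped a microRNA hairpin of the RefSeq table. It lay inside Dnm3, which encodes a dynamin, at chr1:162217324-162217867, and covered both the Dnm3os start window printed above and the first part of the Mir199a-2 hairpin at chr1:162217814-162217923 on the plus strand. The hairpin gives the mature microRNAs of the miR-199a family, known from mesenchymal tissue, whose seeds (bases 2 to 8) are in capitals.
miR-199a-5p: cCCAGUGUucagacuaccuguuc
miR-199a-3p: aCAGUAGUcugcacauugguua

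The Dnm3os region ranked at 88.79 and 88.64 in the KO libraries, against 91.83 and 90.24 in the WT libraries. It was lower in both KO libraries, by 1.45 points at the closest pair. The microRNA itself was not measured.

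Intragenic regions ranked below gene-end regions and close to intergenic ones. Their median percentile was 60.09 and 60.59 in the KO libraries, against 60.02 and 59.97 in the WT libraries. Gene-end regions had medians of 69.67 and 72.21 in the KO libraries, against 72.97 and 72.08 in the WT libraries. Intragenic minus gene-end regions gave a mean of -11.57 points, lower in 4 of 4 libraries (SD 1.43; exact sign-flip test p = 0.125, two-sided, the smallest that 4 libraries allow). Intergenic regions had medians of 63.07 and 61.12 in the KO libraries, against 60.29 and 60.93 in the WT libraries, and the difference to them was -1.185 points (SD 1.23, lower in 4 of 4; exact sign-flip p = 0.125). That gap was no larger than its spread between libraries.

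Regions at internal starts and regions away from them differed in strength. At starts the median percentile was 68.33 and 67.25 in the KO libraries, against 70.32 and 70.98 in the WT libraries. Away from starts it was 58.26 and 58.83 in the KO libraries, against 58.24 and 58.14 in the WT libraries. The regions at starts were 10.85 points higher (SD 2.00, higher in 4 of 4 libraries; exact sign-flip p = 0.125, the smallest possible) and differed from gene-end regions by -2.51 points (SD 1.77, lower in 4 of 4; exact sign-flip p = 0.125). Their peaks were also wider than those away from starts by 26 bp (SD 4.42; wider in 4 of 4).

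**Figure D2:**
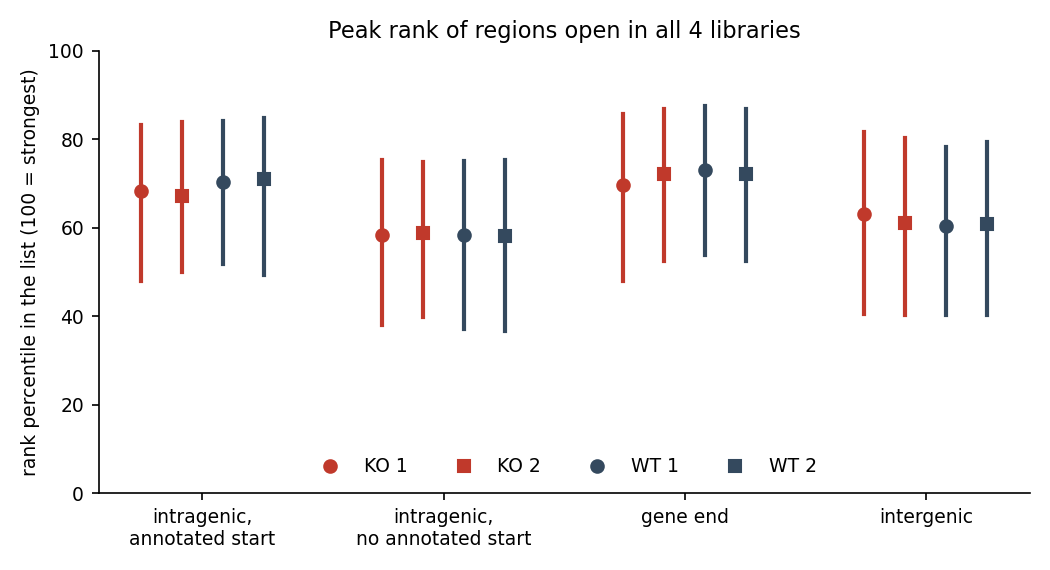
Median rank percentile (points) with the interquartile range over regions (bars) in each of the 2 KO and 2 WT libraries, for intragenic regions at and away from annotated internal starts, gene-end regions and intergenic regions, all open in all 4 libraries. The regions at internal starts (67.25 to 70.98) sit near the gene-end regions, and those away from starts (58.14 to 58.83) sit below both.

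Regions at internal starts were also kept in all lists more often. Of 707 intragenic merged regions at an annotated start, 436 (61.7%) had a peak in all 4 lists, close to the 63.5% of 7330 gene-end regions. Away from starts it was 1716 of 5382 (31.9%), beside 32.5% of 6073 intergenic regions. Presence in a list depends on rank, so these shares and the ranks are not separate measures. The spread of a region's percentile over the 4 libraries had a median of 19.1 points at starts, 26.9 points away from them and 16.8 points at gene ends.

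Next to Tarbp2, the strongest regions at internal starts lay in Add3, a membrane skeleton adducin, Srrm2, a scaffold of nuclear speckles, Fam214b, Rnf126, a ubiquitin ligase, and Aktip, an Akt-binding protein. Their mean percentiles were between 97.57 and 97.92. Add3 ranked at 97.90 and 97.33 in the KO libraries, against 97.45 and 99.02 in the WT libraries. Srrm2 ranked at 96.86 and 98.86 in the KO libraries, against 97.88 and 98.01 in the WT libraries. In both genes the genotypes overlapped.

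The very strongest intragenic regions lay away from annotated starts. The best-ranked region lay in Chl1, a cell adhesion molecule of the L1 family (chr6:103649060-103649292, 83.9 kb from the nearest gene end), and was the first peak of every list. Its fold enrichment over the local background, as the authors' caller gave it within each list, was 79.60 and 79.63 in the KO lists and 81.31 and 81.99 in the WT lists. Next came Myo3a, an unconventional myosin of hair cells, with 3 regions within chr2:22587566-22590179, and a region shared by the overlapping genes Filip1l and Cmss1. Il31ra, a cytokine receptor subunit, Gphn, the synaptic scaffold gephyrin, Cobl, an actin nucleator, Kctd16, a subunit of GABA-B receptors, Cldn34d, a claudin, Lama1, a laminin chain, and Cdk8, a kinase of the Mediator complex, completed the 12. Of these hosts, Kctd16 was on the chromosome not matched to starts.

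Of the 24 regions at or above a mean percentile of 99, 0 overlapped an annotated start window (Kctd16 was not matched). The Myo3a regions had folds between 11.80 and 16.95 in the KO lists and between 11.47 and 15.32 in the WT lists, far below that of Chl1 in each list in spite of their rank. Over the 24 regions the median ratio of the fold to that of WT replicate 1 was 0.962 in KO replicate 1, 0.954 in KO replicate 2 and 1.029 in WT replicate 2. Over all 2230 intragenic regions it was 0.601, 0.753 and 0.854, in the same order. The strongest regions thus varied less with the library than intragenic regions at large, and the cause was not tested. A list of genomic regions known for high signal in any cell was not used here.

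Intragenic regions were spread over 1732 coding genes, 7.91% of 21887. One region was found in 1376 genes, 2 in 257 and 3 or more in 99, and 23 regions lay in 2 overlapping genes. Host genes were long, with a median of 61.8 kb against 17.2 kb for all coding genes. The share of genes that were hosts was 1.24% under 10 kb, 6.24% from 10 to 30 kb, 12.5% from 30 to 100 kb, 23.7% from 100 to 300 kb and 26.9% above that. The gene ends of hosts were open in all 4 libraries for 415 genes (24.0%), as for 24.2% of all coding genes.

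Within the host the regions leaned towards the 5′ side. Of 1788 regions with a known strand, 62.4% lay on the 5′ side of the gene's midpoint, with 284 in the first 10% of its length and 115 in the last 10%. Away from annotated starts the lean was smaller, with 55.5% of 1361 regions on the 5′ side, 137 in the first 10% and 108 in the last 10%. Regions were mostly single, since 393 (17.6%) lay within 10 kb of another. Their distance from the nearest gene end had a median of 12.9 kb and reached 614.3 kb.

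**Figure D3:**
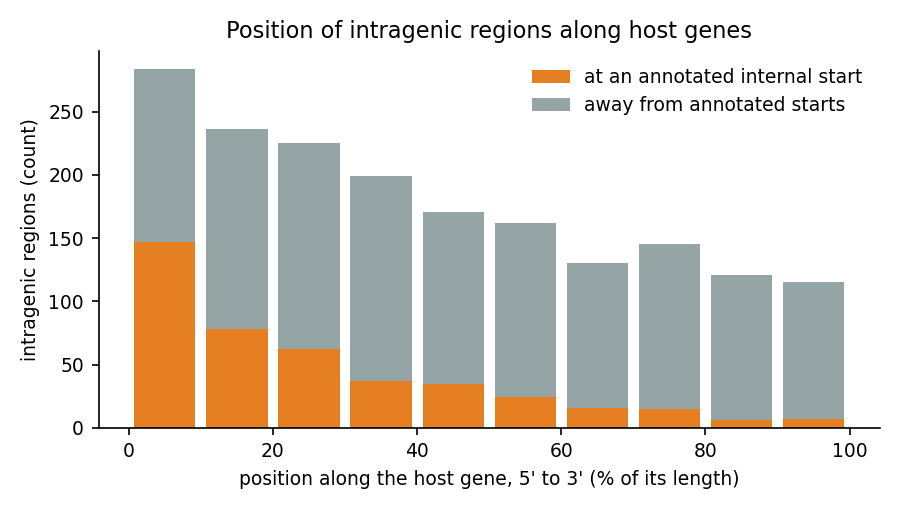
Number of intragenic regions (y axis) in each 10% step along the host gene from its 5′ to its 3′ end (x axis, % of gene length), split into regions at and away from annotated internal starts. The first step holds 147 regions at a start and 137 away from one, and the last step 7 and 108.

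The genes with most regions held 5 to 10 each. Tex14, a protein of the bridges between germ cells, held 10 regions within 49.4 kb (chr11:87422864-87472294), 0 of them at an annotated start. Of these, 8 formed 4 pairs whose starts were 323 to 337 bp apart. Over all 10 regions the mean percentiles ran from 15.9 to 90.4. Plec, the cytolinker plectin, Pakap, an anchor of protein kinase A, and Glis1, a zinc-finger transcription factor, held 6 each. Stard13, a protein with a lipid-binding START domain, Myh9, a non-muscle myosin heavy chain, Myof, the membrane repair protein myoferlin, Dlgap1, a synaptic scaffold, Mbnl1, a splicing regulator, Nsmce2, a SUMO ligase, Cubn, the receptor cubilin, and Bcl2l1, an inhibitor of apoptosis, held 5 each.

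Regions of 1 host could differ between the genotypes in opposite directions, as in the following pairs, chosen after their values were seen. In Plec the region at chr15:76196132-76196408 ranked at 51.23 and 51.07 in the KO libraries, against 73.15 and 91.62 in the WT libraries. Another Plec region, at chr15:76207433-76207810, ranked at 93.30 and 92.50 in the KO libraries, against 91.59 and 92.07 in the WT libraries, so the first was lower and the second higher in both KO libraries. In Glis1 the region at chr4:107621445-107621743 ranked at 2.43 and 14.91 in the KO libraries, against 45.94 and 41.06 in the WT libraries. The Glis1 region at chr4:107550650-107550932 ranked at 72.07 and 73.51 in the KO libraries, against 34.57 and 2.67 in the WT libraries. Regions of Pakap also went both ways, with 3.0 and 7.59 in the KO libraries, against 33.32 and 36.05 in the WT libraries, at chr4:57804983-57805232, and 83.10 and 89.12 in the KO libraries, against 55.59 and 61.86 in the WT libraries, at an annotated start (chr4:57845007-57845339).

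The lists of mesenchymal and cytoskeletal genes held many hosts, beside a background of 7.91% of coding genes. Hosts were 17 of 38 actin and smooth muscle genes (44.7%), 13 of 28 focal adhesion genes (46.4%), 17 of 40 mesenchymal transcription factors (42.5%) and 8 of 23 growth factor receptors (34.8%). Genes of these lists are long, with median lengths of 75.3, 67.8, 66.9 and 81.7 kb, and 12.5% of all coding genes from 30 to 100 kb were hosts. Hosts were 13 of 50 collagen and matrix genes, 9 of 37 TGF-beta and BMP genes, 6 of 20 TEAD and YAP genes, 7 of 37 Hedgehog and Wnt genes, 4 of 18 AP-1 genes, 4 of 27 regulators of muscle, fat, bone and cartilage, and 1 of 15 fibroblast markers (Twist2). The marker lists of pluripotent, neural, immune, endothelial and epithelial cells held 0 intragenic regions in 9, 12, 12, 11 and 14 genes. Median gene lengths of these lists ran from 6.55 to 46.2 kb, beside 17.2 kb for all coding genes.

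Regions in actin and adhesion genes went both ways. Srf, the serum response factor that drives actin genes, had a region at an internal start (chr17:46556203-46556454) at 74.83 and 83.88 in the KO libraries, against 67.22 and 74.45 in the WT libraries. It was higher in both KO libraries, by 0.38 points at the closest pair. Mrtfa, its actin-sensing partner, ranked at 78.81 and 70.34 in the KO libraries, against 69.75 and 75.79 in the WT libraries, and overlapped. Tns1, the adhesion protein tensin 1, ranked at 83.06 and 92.14 in the KO libraries, against 40.36 and 57.17 in the WT libraries, so both KO libraries were higher. Itgb5, an integrin of vitronectin, ranked at 59.83 and 69.02 in the KO libraries, against 77.33 and 85.44 in the WT libraries, and both KO libraries were lower. Over the 31 regions in actin and smooth muscle genes 11 were higher and 8 lower in both KO libraries, and over the 24 in focal adhesion genes 9 were higher and 8 lower. Of all 8935 regions open in all 4 libraries, 21.1% were higher and 25.0% lower. These counts were not tested.

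Transcription factor and receptor genes are given next. Atf2, an AP-1 partner, held a region (chr2:73867897-73868035) at 98.04 and 97.82 in the KO libraries, against 97.39 and 98.54 in the WT libraries. Vgll4, a repressor of TEAD factors, ranked at 85.02 and 96.69 in the KO libraries, against 95.83 and 90.67 in the WT libraries, and in both genes the genotypes overlapped. Igf1r, the receptor of insulin-like growth factors, ranked at 93.68 and 91.22 in the KO libraries, against 81.15 and 87.27 in the WT libraries, and was higher in both KO libraries. Smo, the signal transducer of Hedgehog, ranked at 96.76 and 86.34 in the KO libraries, against 55.06 and 77.91 in the WT libraries (chr6:29747894-29748602), also higher. Of the 27 regions in mesenchymal transcription factors 7 were higher and 9 lower in both KO libraries, and of the 10 in TEAD and YAP genes 1 was higher and 5 lower. Of the 11 in growth factor receptor genes 5 were higher and 1 lower. Of the 7 in Hedgehog and Wnt genes only 1, that of Smo, was higher, and 3 were lower. Beside these stand 21.1% higher and 25.0% lower of all 8935 regions open in all 4 libraries. Lists of this size are too small to show a direction, and the counts were not tested.

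Ranbp2 held no intragenic region, and 6 of 45 genes of its complex, of nuclear transport and of SUMO did. Ipo5, an importin, ranked at 68.04 and 89.77 in the KO libraries, against 80.41 and 78.19 in the WT libraries, and the genotypes overlapped. Nup210, a membrane nucleoporin, ranked at 12.64 and 40.85 in the KO libraries, against 65.60 and 79.20 in the WT libraries (chr6:91076263-91076547), and was lower in both KO libraries. Senp1, a SUMO protease, Tnpo1, a transportin, and Ipo9, an importin, were also hosts. Over the 6 regions 0 were higher and 1 was lower in both KO libraries, beside 21.1% and 25.0% of all 8935 regions open in all 4 libraries.

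In lists of equal length, the rule nearly fixes the share of peaks in intragenic regions, since each region has a peak in all 4 lists. Intragenic regions held 16.3% and 16.2% of the KO peaks, against 16.1% and 16.2% of the WT peaks, a difference of 0.090 points. That difference (exact permutation p = 0.667, two-sided, n = 2 each, where the smallest possible is 0.333) could reflect only regions with more than 1 peak in a list. Such regions numbered 34 and 14 in the KO lists, against 2 and 22 in the WT lists, so the test does not bear on the genotype. With the lists as deposited the difference was 4.51 points. With peaks of −log10 q of at least 10 it was 5.5 points (exact permutation p = 0.667 for each, n = 2 each). Those lists differ in length, so the peaks of the regions make up unequal shares of them. The median percentile of intragenic regions differed by 0.35 points, 60.34 ± 0.35 in the KO libraries and 59.99 ± 0.03 in the WT libraries (SD, n = 2 each; exact permutation p = 0.333, the smallest possible). The median shift changed direction without KO replicate 1 or KO replicate 2 (-0.591 and -0.443). At internal starts the median was 67.79 ± 0.77 in the KO libraries and 70.65 ± 0.47 in the WT libraries, a difference of -2.86 points, with both KO libraries lower (SD, n = 2 each; exact permutation p = 0.333).

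Region by region, 527 intragenic regions (23.6%) ranked higher in both KO libraries than in both WT libraries, beside 21.1% of all 8935 regions open in all 4 libraries. Another 565 (25.3%) ranked lower, beside 25.0% of all regions. Both shares are near the background and are not a result about intragenic regions. At internal starts 70 (16.1%) ranked higher and 116 (26.6%) lower, much as at gene ends (15.6% and 25.8%), and away from starts 434 (25.3%) ranked higher and 437 (25.5%) lower. With peaks of −log10 q of at least 10 in place of lists of equal length, 6.64% of intragenic regions ranked higher and 30.7% lower, and with the lists as deposited 8.48% and 25.4%, so the split depends on how lists of unequal strength are matched.

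The widest gaps between genotypes were found as follows. Cd9, a tetraspanin, held the region with the widest gap in favour of the KO cells (chr6:125467317-125467735), at 94.81 and 89.34 in the KO libraries, against 28.21 and 24.52 in the WT libraries. It was higher in both KO libraries, by 61.13 points at the closest pair. Trim50, a ubiquitin ligase, ranked at 88.91 and 85.10 in the KO libraries, against 21.32 and 28.84 in the WT libraries (chr5:135357703-135357822). Ccnd3, a D-type cyclin, ranked at 83.34 and 76.55 in the KO libraries, against 24.23 and 24.61 in the WT libraries (chr17:47595641-47596082). Neither overlapped between genotypes, and Kcnj12, a potassium channel, Gm15319, S100b, a calcium-binding protein, Pcdh1, a protocadherin, and Pkp4, a plakophilin, had the next gaps, with WT percentiles between 0.91 and 23.0.

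In the other direction, Vmp1, a membrane protein of autophagy, held the widest gap (chr11:86624263-86624654), at 20.72 and 25.58 in the KO libraries, against 78.22 and 72.63 in the WT libraries. It was lower in both KO libraries, by 47.05 points at the closest pair. Nfe2l2, the oxidative stress factor NRF2, ranked at 13.77 and 37.39 in the KO libraries, against 83.63 and 74.62 in the WT libraries (chr2:75685480-75685885). Dysf, the membrane repair protein dysferlin, ranked at 21.09 and 26.01 in the KO libraries, against 74.31 and 65.31 in the WT libraries, at an internal start (chr6:84010601-84011133). The other 5 of the 8 widest gaps were in Smad7, an inhibitor of TGF-beta signalling, Blmh, a cysteine protease, Adamts16, a secreted metalloprotease, Syn3, a synapsin, and Ttc28, with KO percentiles between 2.90 and 29.84.

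**Figure D4:**
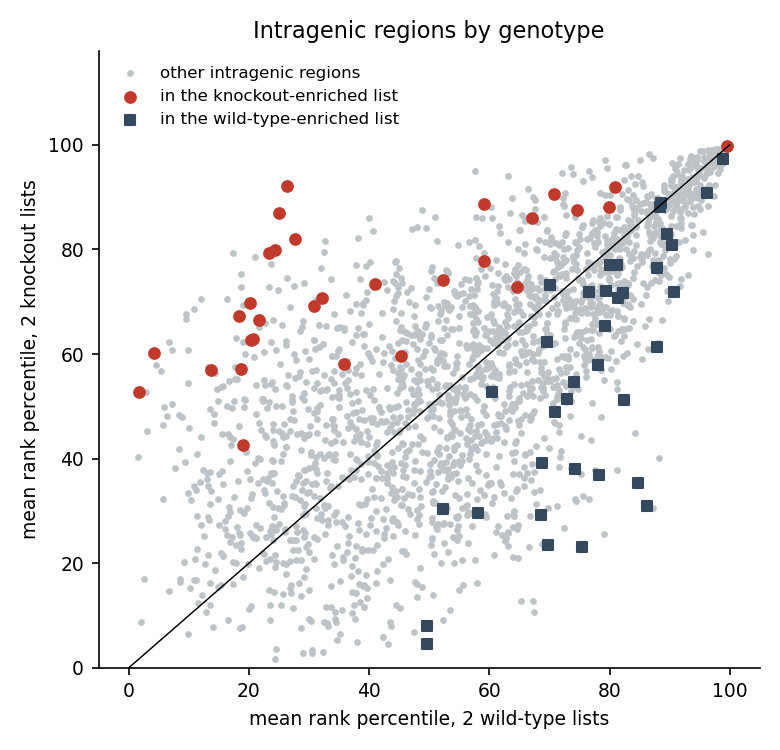
Mean rank percentile of each intragenic region in the 2 KO lists (y axis) against the 2 WT lists (x axis), with members of the authors' deposited lists of regions enriched in KO or WT cells marked. The line is equality; the 30 regions of the KO list lie on or above it and most of the 36 of the WT list below it.

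The authors' deposited table of regions enriched in KO cells held 30 intragenic regions (1.35%, beside 0.929% of all regions open in all 4 libraries), and that of regions enriched in WT cells held 36 (1.61%, beside 1.61%). They overlapped 30 (15.9%) of the 189 KO-enriched and 35 (18.4%) of the 190 WT-enriched regions. Of gene-end regions, 0.301% were in the KO-enriched and 1.59% in the WT-enriched list. Of intergenic regions, it was 1.82% and 1.72%, so the KO-enriched share of intragenic regions lay between those of the other classes. Of the 30 KO-enriched intragenic regions, 27 ranked higher in both KO libraries and 3 overlapped, with a median difference of 38.46 points. Of the 36 WT-enriched intragenic regions, 27 ranked lower in both KO libraries and 9 overlapped, with a median of -19.24 points. The lists and the ranks come from the same study and are not independent evidence of each other. On chromosomes matched to starts, 0 of the KO-enriched intragenic regions lay at an internal start and 27 away from one. Of the WT-enriched intragenic regions 10 lay at a start and 26 away. Gene-end regions were also fewer in the KO-enriched list, with 14 against 74 in the WT-enriched list. These differences were not tested.

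Of the KO-enriched intragenic regions, 27 differed without overlap, among them the following. Actn4, an actin crosslinker, ranked at 67.76 and 57.76 in the KO libraries, against 19.42 and 21.19 in the WT libraries (chr7:28901405-28901667). Wasl, an activator of actin nucleation, ranked at 76.52 and 82.24 in the KO libraries, against 9.17 and 37.46 in the WT libraries. Eps8, a capping protein of actin filaments, ranked at 67.45 and 73.81 in the KO libraries, against 22.38 and 41.82 in the WT libraries, and all 3 were higher in both KO libraries. Cobl was on the same list with nearly equal ranks, 99.75 and 99.70 in the KO libraries, against 99.55 and 99.67 in the WT libraries. Actn4 and Cobl are on the actin and smooth muscle list, and Wasl and Eps8 were named after their values were seen, so the 4 are no evidence of a theme in the list. The others among the 10 best ranked were Cdsn, Fer, Dlgap1, Pex2, Myo1c, Tmem140, Tchp, Unc5b and Ptprn.

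Among the WT-enriched intragenic regions, those of Txnrd1, Stk40 and Fbn1 ranked lower in KO cells. Txnrd1, the thioredoxin reductase of the cytosol, ranked at 93.35 and 88.37 in the KO libraries, against 95.84 and 96.45 in the WT libraries, at an internal start (chr10:82858819-82859336). Stk40, a kinase-like protein, ranked at 73.88 and 69.67 in the KO libraries, against 93.17 and 88.26 in the WT libraries. Fbn1, the microfibril protein fibrillin, ranked at 46.62 and 31.70 in the KO libraries, against 61.68 and 75.81 in the WT libraries (chr2:125304071-125304414). Fbn1 was named after its values were seen. Bclaf1, a nuclear protein of RNA processing, was an exception at 89.11 and 88.48 in the KO libraries, against 86.13 and 91.06 in the WT libraries, and so were the 2 Tex14 regions, at 88.82 and 87.39 in the KO libraries, against 88.46 and 88.51 in the WT libraries, for the stronger of them. Ripor2 also overlapped, at 70.60 and 83.30 in the KO libraries, against 80.29 and 82.31 in the WT libraries. The others of the 10 best ranked were Tarbp2, Cdk2ap2, Tef and Cdk19.

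The difference between genotypes varied with the chromosome. Intragenic regions had a median difference of 4.97 points on chromosome 17 (n = 120), 3.78 on chromosome 6 (n = 112) and 2.85 on chromosome 3 (n = 87). It was -4.89 on chromosome 9 (n = 103), -4.19 on chromosome 19 (n = 83) and -4.13 on chromosome 5 (n = 114). On these 6 chromosomes the median percentiles of the KO libraries did not overlap those of the WT libraries. Neither did they on several others, among them chromosomes 4 and 14, with median differences of only -0.1 and -0.27. Lack of overlap therefore does not set the 6 apart. On chromosome 10 the median difference was -3.86 (n = 112), and the genotypes overlapped (61.25 and 58.92 in the KO libraries, against 64.28 and 59.97 in the WT libraries). Gene-end regions had 2.95 on chromosome 17, -0.17 on chromosome 6, -0.03 on chromosome 3 and -6.35 on chromosome 9. They had -4.05 on chromosome 19 and -3.23 on chromosome 5. Intergenic regions had 4.37, 2.11, 4.23, 0.15, -3.43 and 0.15 on these chromosomes, in the same order. On chromosomes 6 and 3 the medians of both intragenic and intergenic regions were thus higher in KO cells, with little change at gene ends. On chromosome 13 the intragenic median was -1.88 and the gene-end median -7.82.

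Summits mostly lay close together between libraries. The median distance between the summits of a region ran from 12 to 20 bp over the 6 pairs of libraries, and it was 17 bp between the KO libraries and 12 bp between the WT libraries. Over the same pairs it ran from 8 to 18 bp in gene-end regions and from 9 to 17 bp in intergenic regions. In intragenic regions the range of the 4 summits had a median of 43 bp, was within 50 bp for 1301 regions (58.3%) and exceeded 200 bp for 62. The merged regions were 111 to 969 bp wide, with a median of 292 bp.

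Around the limit that defines the class, the nearest regions inside it lay in Spg11, a protein of lysosome reformation, at 88.06 and 88.92 in the KO libraries, against 93.23 and 86.59 in the WT libraries, and in Vat1, a membrane protein, at 24.48 and 48.18 in the KO libraries, against 41.96 and 4.29 in the WT libraries. The nearest outside it were at Rassf7, at 56.77 and 77.48 in the KO libraries, against 64.90 and 59.53 in the WT libraries, and at Sardh, at 59.62 and 30.33 in the KO libraries, against 51.36 and 50.18 in the WT libraries. At the limit of the lists, the lowest-ranked regions kept were in Trak1 (0.35 in KO replicate 1), Vegfd (0.08 in KO replicate 2), Rgs12 (0.12 in WT replicate 1) and Mprip (0.13 in WT replicate 2). In the other 3 libraries these regions ranked between 15.16 and 60.27.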

How the data were processed

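The submitters' processing notes name cutadapt, deepTools, Bowtie2, MACS2, DESeq2 and DiffBind 2.2.12 and the build mm10, without their roles. The authors deposited 1 peak list per library, called per library as the peak names show, with a score, a fold enrichment ratio at the summit, a −log10 p and a −log10 q per peak. These are the authors' values and served only for ranking, filtering and describing peaks inside 1 list. The exception is the ratio of folds between libraries given with the strongest regions, which is a description and no comparison of the genotypes. Also deposited were 2 lists of differential regions, whose settings no source used here gives.

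Lists were reduced to the 13877 peaks of highest −log10 q (ties by fold). Genes, strands, starts and sequences came from RefSeq tables for GRCm38.p6. Strength was compared as rank percentile, with exact permutation tests (2 against 2 libraries) and exact sign-flip tests over 4 libraries, in Python 3.11.15 with pandas 2.3.3, numpy 2.4.6 and scipy 1.17.1, tested on simulated data. No read counts were used, and depth is unknown. A region was called higher or lower when both KO percentiles lay above or below both WT percentiles. The regions, gene lists and tests were chosen with earlier results of these data known. Named genes are Ranbp2, the 12 best-ranked hosts, the 12 genes with most regions, up to 4 per gene list, the 10 best-ranked in each deposited list, the 8 widest gaps per direction, the regions at each limit, and regions at annotated starts or microRNAs. Others were named after their values were seen. The result for 1 host gene is not reported here.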

Additional observations from a re-analysis of the deposited data

How the results depend on the processing

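Among the recomputed values 6 were counted as reversed in sign and 16 as moved. The summit distance without WT replicate 2 also changed sign and is counted among the 16. The others kept their direction and their side of the threshold, which no test of 4 libraries could pass, but not always their size. The difference in peak share, 0.0901 points, became 4.51 with lists as deposited, 5.5 with −log10 q of at least 10, and ran from 0.0144 to 0.162 with 1 library left out. The rule and the lengths of the lists largely set this share. The number of intragenic regions was 1469 with 10000 peaks per list. The shift of their median percentile between genotypes, 0.35 points, became -7.99 with lists as deposited, -1.15 with 10000 peaks, -12.3 with −log10 q of at least 10, and ran from -0.591 to 1.47 with 1 library left out. The gap to intergenic regions became 0.734 points with lists as deposited and -2.35 with 10000 peaks, and the gap to gene-end regions ran from -13.9 to -10 points over all settings. Regions higher in both KO libraries (527) numbered 253 with lists as deposited, 321 with 10000 peaks and 123 with −log10 q of at least 10, and 856 to 917 with 1 library left out. Those lower in both (565) numbered 374 with 10000 peaks and 846 to 1007 with 1 library left out, where fewer libraries have to be separated. KO-enriched regions (30) numbered 50 with lists as deposited and 12 with 10000 peaks. The excess of summit distance between genotypes, 1.25 bp, ran from -2.5 to 6 bp with 1 library left out. The cause of these changes was not tested. The labels give no shared batch and same-numbered libraries correlated at 0.033 over 8935 regions, so the numbers were not treated as pairs. With the replicate block the difference in peak share was 0.0901 points (exact sign-flip p = 1.0) and the rank shift 0.346 (exact sign-flip p = 0.5). Without counts, genotypes were compared by rank, by share of peaks, and by the position and width of peaks, and 2 libraries per genotype cannot give a p below 0.333.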
